A study of Mus musculus with 8 samples.

Results

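The hemoglobin genes described here are the embryonic and adult globin genes *Hba-a1*, *Hba-a2*, *Hba-x*, *Hbb-b1*, *Hbb-b2*, *Hbb-y* and *Hbb-bh1*, chosen by symbol. The table of the series lists 26590 gene symbols in 51414 rows, 1 row for each transcript of the UCSC known-gene set. Of the 7 symbols, 5 were matched by 6 rows, and *Hba-a1* and *Hbb-b2* were matched by no row and were not analysed here. Each gene is given by its row with the highest average of the genotype means, so the values that define the rows are also the values compared between genotypes, and they are given as a description with no test. RNA from whole hearts of 4 *Dio3+/+* and 4 *Dio3-/-* mouse fetuses, each heart from 1 animal, was sequenced after removal of ribosomal RNA. All titles gave embryonic day E13.5, but the age field of *Dio3-/-* hearts 3 and 4 gave E18.5. All fetuses were on a C57BL/6J background, and *Dio3-/-* fetuses lacked the type 3 deiodinase, the enzyme that inactivates thyroid hormone, in every tissue and not in the heart alone. No hormone or drug was given to either genotype as far as the labels state. The study used these hearts to ask how gene expression in the developing heart differs without this enzyme.

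Hemoglobin is a tetramer of 2 α-like and 2 β-like globin chains, each of which binds heme. Primitive red cells, which arise in the yolk sac and circulate through the fetal heart, make the embryonic chains ζ (*Hba-x*), εy (*Hbb-y*) and βh1 (*Hbb-bh1*) together with α chains (*Hba-a1*, *Hba-a2*). Definitive red cells, which arise in the fetal liver, make α chains and the adult β chains (*Hbb-b1*, *Hbb-b2*), and they replace the primitive cells in midgestation. Globin RNA in a heart is therefore read here as red cell RNA, and the tissue it came from was not tested.

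The table gave for each genotype only the authors' mean, read as RPKM (reads per transcript length, relative to all mapped reads), and the coefficient of variation (CV), the SD divided by the mean. It gave no values for single hearts and no read totals, and the study's methods state aligned reads only as a range and an average over the samples, so the number of reads behind each value was not known. From a mean and a CV of 4 hearts, the value of any heart is known to lie within 1.5 SD of the mean, and these limits stand below in place of the value of each heart. All 8 titles gave E13.5, whereas the age field of *Dio3-/-* hearts 3 and 4 gave E18.5 and the study's methods named a further age. If a difference in age existed, it cannot be told apart from genotype in these means. The design text named male hearts, yet *Xist*, the RNA of the inactive X chromosome of females, averaged 35.64 RPKM (CV 0.99) in *Dio3+/+* and 39.97 (CV 0.55) in *Dio3-/-* hearts. The Y-linked genes *Eif2s3y* and *Ddx3y* averaged 9.38 and 6.17 RPKM (CV 1.04 for both) in *Dio3+/+* and 7.29 and 4.2 (CV 1.46 and 1.39) in *Dio3-/-* hearts. RNA of both sexes was thus present in each genotype. The number of hearts of each sex was not known, and the part of sex in the comparison was not tested. *Dio3* RNA itself was listed at 0.35 RPKM (CV 1.23) and 0.13 (CV 0.76), below the filter of 1 RPKM. Of 7 genes known to respond to thyroid hormone, *Thrsp* (0.23 and 0.15 RPKM) and *Dio1* (0.01 in both) were below the filter. The other 5 passed an adjusted P of 0.05 by limma and were higher in *Dio3-/-* hearts, among them *Klf9*, which rose from 1.86 to 8.48 RPKM (log2 ratio 1.93, adjusted P = 5.74e-06 by limma), where 2.29% of the 14657 tested genes passed in either direction. Cardiomyocyte markers were abundant in both genotypes, with *Tnnt2* at 1212.43 and 1280.77 RPKM.

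The promoters of the globin genes are shown because the genes described below had nearly the same ratio between genotypes, whichever cluster they lie in. They are the 150 bases before the start of each gene in RefSeq (GRCm38.p6), 5′ to 3′ on the strand of the gene, and capitals mark 4 short motifs on either strand: CACCC for the CACCC box, CCAAT for the CCAAT box, GATAA for a GATA motif and ATANAA for a TATA-like motif. *Hba-x* (chr11:32276450-32276599, plus strand) and *Hba-a2* (chr11:32296342-32296491, plus strand) represent the α cluster. *Hbb-y* (chr7:103853208-103853357, minus strand) and *Hbb-bs* (chr7:103827929-103828078, minus strand), an adult β gene of C57BL mice whose row is named *Beta-s*, represent the β cluster. 
Hba-x: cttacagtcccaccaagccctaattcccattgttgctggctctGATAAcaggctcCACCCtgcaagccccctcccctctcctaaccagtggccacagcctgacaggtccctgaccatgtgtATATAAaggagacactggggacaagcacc
Hba-a2: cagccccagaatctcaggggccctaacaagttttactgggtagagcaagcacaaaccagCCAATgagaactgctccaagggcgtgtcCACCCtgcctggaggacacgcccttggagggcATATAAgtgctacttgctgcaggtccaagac
Hbb-y: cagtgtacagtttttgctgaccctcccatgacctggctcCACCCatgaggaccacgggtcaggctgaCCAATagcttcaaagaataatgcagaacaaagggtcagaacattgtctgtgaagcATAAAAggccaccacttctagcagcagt
Hbb-bs: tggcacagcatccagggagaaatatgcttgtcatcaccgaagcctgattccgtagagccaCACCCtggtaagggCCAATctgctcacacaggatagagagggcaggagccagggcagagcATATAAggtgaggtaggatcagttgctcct
All 4 held CACCC and ATANAA, letters found in 37.4% and 21.1% of 32843 promoter windows of this length. CCAAT stood in 3 of the 4, in all but *Hba-x*, against 24.5% of the windows. GATAA stood only in *Hba-x* among these 4, at 107 to 103 bases before the start, against 13.3% of the windows. The window of *Hba-a1* matched that of *Hba-a2* at 147 of 147 bases once shifted by 3 bases. The letters describe these windows only and do not mark sites where a factor was bound.

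The embryonic globin genes were abundant in hearts of both genotypes and had lower means in *Dio3-/-* hearts. *Hbb-y*, the εy chain of primitive red cells, averaged 29100.96 RPKM ± 8439 (SD, n = 4) in *Dio3+/+* and 9908.94 ± 6044 in *Dio3-/-* hearts. The *Dio3+/+* mean was 2.94 times the *Dio3-/-* mean, a log2 ratio of −1.55 on the log2(RPKM + 0.5) scale. Any *Dio3+/+* heart lay between 16224 and 41978 RPKM and any *Dio3-/-* heart between 768 and 19050, so hearts of the 2 genotypes could overlap at the edges of these limits. *Hba-x*, the ζ chain and the first α-like chain of development, averaged 7388.93 RPKM ± 1995 in *Dio3+/+* and 2529.68 ± 1442 in *Dio3-/-* hearts, a ratio of 2.92 (log2 −1.55). Its *Dio3+/+* hearts lay between 4341 and 10437 RPKM and its *Dio3-/-* hearts between 348 and 4712, a narrow zone of possible overlap. *Hbb-bh1*, the βh1 chain of the earliest primitive red cells, was far lower than the other embryonic genes, at 317.82 RPKM ± 98.5 in *Dio3+/+* and 110.93 ± 51 in *Dio3-/-* hearts, a ratio of 2.87 (log2 −1.51). Its *Dio3+/+* hearts lay between 168 and 468 RPKM and its *Dio3-/-* hearts between 33.6 and 188. A second row of *Hbb-bh1* gave 175.73 and 62.03 RPKM, a ratio of 2.83.

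The adult globin genes showed the same pattern. *Hba-a2*, which encodes the α chain used in embryonic, fetal and adult hemoglobin, had the highest mean of all genes in the table, at 50743.89 RPKM ± 17253 in *Dio3+/+* and 17706.66 ± 10270 in *Dio3-/-* hearts (ratio 2.87, log2 −1.52). Its hearts lay between 24484 and 77004 RPKM in *Dio3+/+* and between 2169 and 33244 in *Dio3-/-*. *Hbb-b1*, an adult β chain, averaged 9842.95 RPKM ± 3937 in *Dio3+/+* and 3549.92 ± 1917 in *Dio3-/-* hearts (ratio 2.77, log2 −1.47), with limits of 3863 to 15823 and 648 to 6452 RPKM. The limits of the genotypes overlapped for all 5 globin genes. With 4 hearts and no single values, how many hearts overlapped could not be read.

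**Figure D1:**
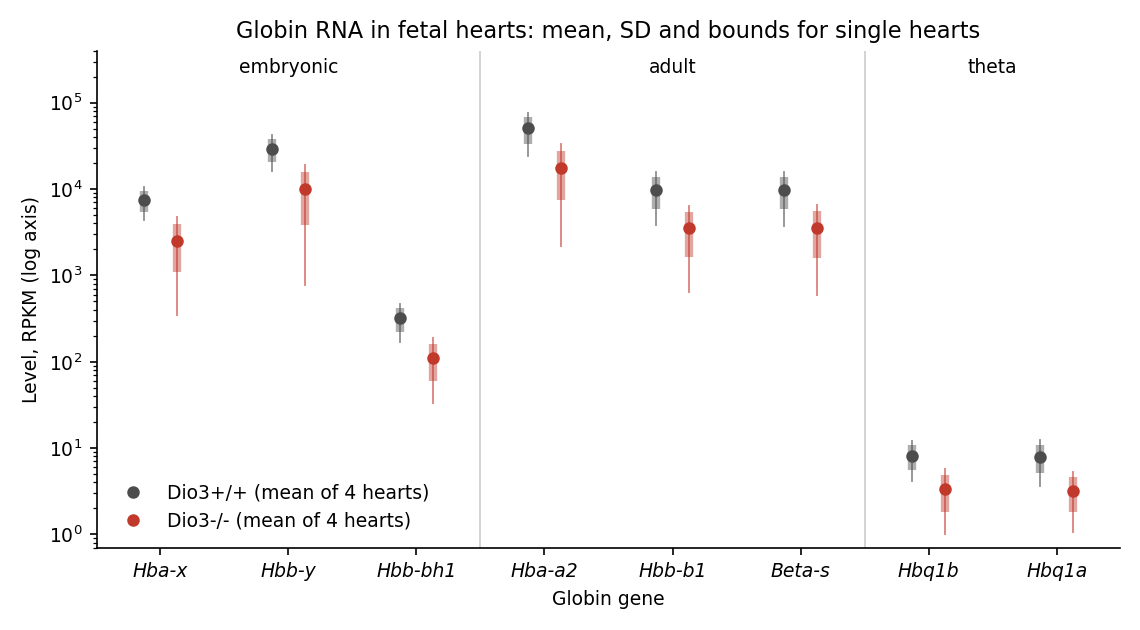
Level of each globin gene in RPKM (vertical log axis) in *Dio3+/+* (grey) and *Dio3-/-* (red) hearts, with points for the mean of 4 hearts, thick bars for 1 SD either side and thin lines for the limits within which every single heart must lie. The *Dio3-/-* mean was below the *Dio3+/+* mean for each gene drawn, including the 3 rows that were not among the chosen genes (*Beta-s*, *Hbq1b* and *Hbq1a*).

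Across genes whose levels spanned 159.7-fold in *Dio3+/+* and 159.6-fold in *Dio3-/-* hearts, the ratio of the genotype means ran only from 2.77 (*Hbb-b1*) to 2.94 (*Hbb-y*). *Dio3-/-* means were thus 34.1% to 36.1% of the *Dio3+/+* means, and the log2 ratios lay within 0.08 of each other, with a median of −1.52 beside 0.04 over the 14657 tested genes. For all 5 genes the difference between the means exceeded the sum of both SDs, which held in this direction for 2.7% of tested genes. Since the same contrast entered the choice of genes, nothing is read from that count. Of the 654 genes with a mean above 100 RPKM, 10 had a log2 ratio below −1, a limit passed by 0.805% of all tested genes. These 10 were the 5 globin genes, *Beta-s*, the steroid dehydrogenase gene *Hsd3b6* (−1.48), the red cell heme enzyme *Alas2* (−1.39), the anion exchanger *Slc4a1* (−1.15) and the membrane skeleton gene *Epb4.1* (−1.0). *Hbb-y* and *Hba-x* stood first and second by log2 ratio among the 654. The ranking and the list of 10 rest on that same contrast, so nothing is read from them either. In bulk RNA of a heart, fewer red cells and less globin RNA in each red cell cannot be told apart, and the amount of blood left in each heart was not given.

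**Figure D2:**
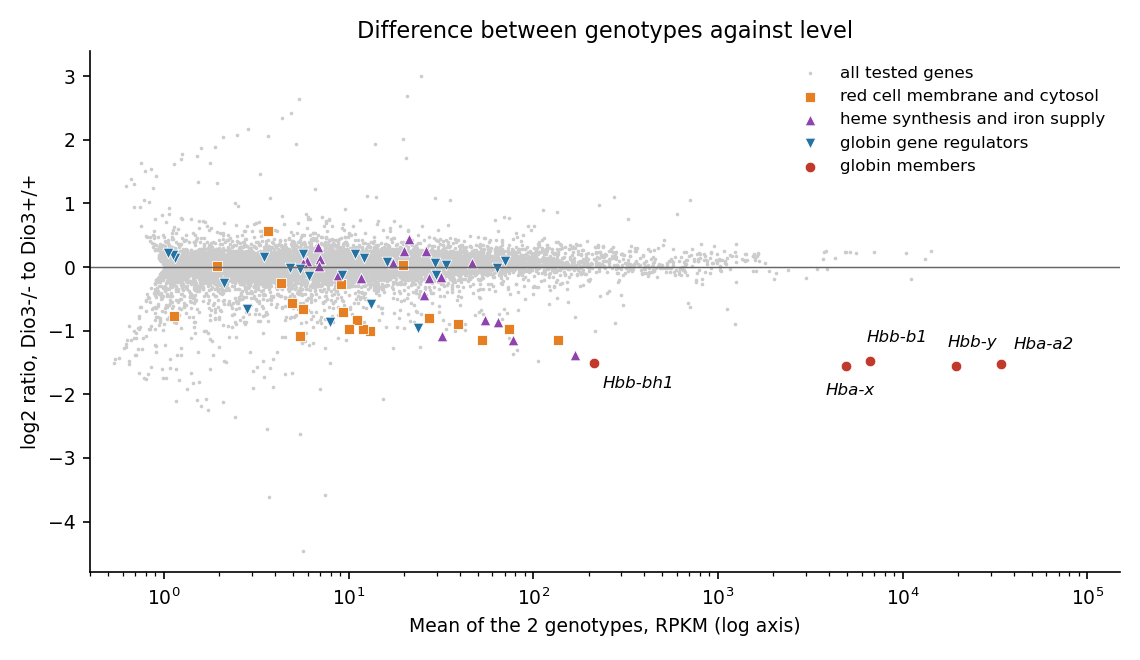
Log2 ratio of *Dio3-/-* to *Dio3+/+* means (vertical axis) against the mean level of both genotypes in RPKM (horizontal log axis) for the 14657 tested genes, with the globin, red cell, heme and regulator genes coloured. The 5 globin genes lie in a flat row between −1.55 and −1.47 from *Hbb-bh1* to *Hba-a2*, while most genes lie near 0.

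The spread between hearts was also of similar size for the 5 genes. Whether the same hearts were high or low for each gene could not be read. The CV of the 5 genes was 0.27 to 0.40 in *Dio3+/+* and 0.46 to 0.61 in *Dio3-/-* hearts, higher in *Dio3-/-* for all 5, beside a median CV over tested genes of 0.09 and 0.06. The lowest CV in *Dio3+/+* was that of *Hba-x* (0.27) and the highest in *Dio3-/-* that of *Hbb-y* (0.61). For any 2 *Dio3-/-* hearts, the mean of *Hbb-y* lay between 4631 and 15186 RPKM and that of *Hbb-bh1* between 66.3 and 156, which therefore also holds for the 2 hearts whose age field gave E18.5. For any 2 *Dio3-/-* hearts, the mean of *Hbb-y* was at least 0.886 times the mean of *Hbb-b1*. These limits hold for the mean of a pair and not for each heart, and the age of the hearts was not tested.

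The make-up of the globin RNA was described next, as a share of summed means within each genotype. An equal change of all globin genes in a heart would leave that heart's own share as it was, but in a share of summed means a heart with more globin RNA weighs more. Among β-like chains, *Hbb-y* and *Hbb-bh1* together made up 74.9% of the summed RPKM in *Dio3+/+* and 73.8% in *Dio3-/-* hearts, and *Hbb-b1* the remaining 25.1% and 26.2%. *Hbb-bh1* alone made up 0.809% and 0.817%. Among α-like chains, *Hba-x* made up 12.7% and 12.5%, and *Hba-a2* 87.3% and 87.5%. The summed α-like means were 58133 RPKM in *Dio3+/+* and 20236 in *Dio3-/-* hearts, and the summed β-like means 39262 and 13570, a ratio of α-like to β-like of 1.48 and 1.49. With *Beta-s* counted as adult β, the embryonic share fell to 59.9% and 58.5% and the ratio of α-like to β-like to 1.18 in both genotypes.

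**Figure D3:**
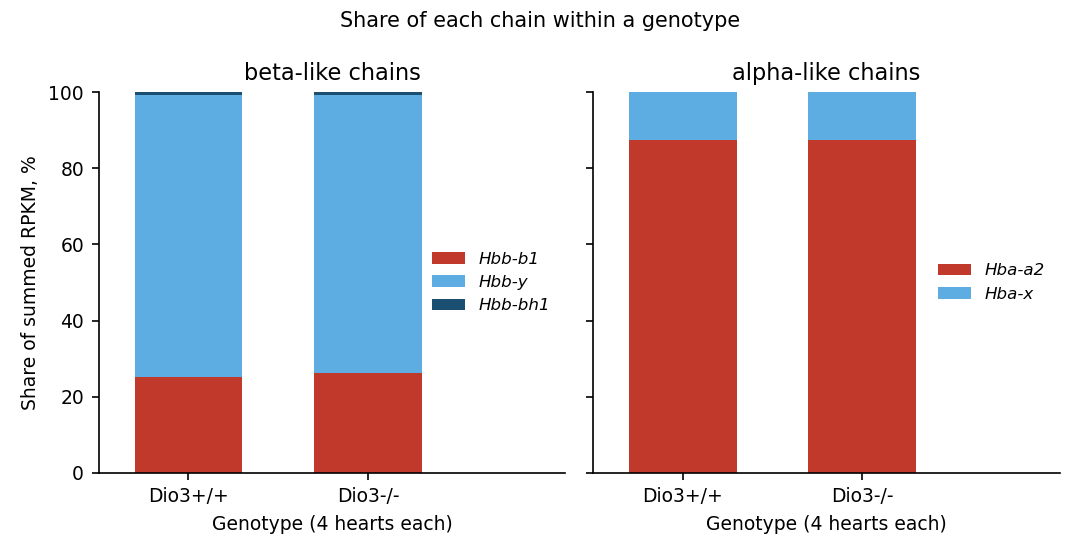
Share of each chain in the summed RPKM of the β-like (left) and α-like (right) globin genes, in percent, from the means of 4 *Dio3+/+* and 4 *Dio3-/-* hearts. The embryonic β-like genes take 74.9% and 73.8%, and *Hba-x* takes 12.7% and 12.5%. *Beta-s* is left out of the sums drawn, and with it counted as adult β the embryonic β-like share is 59.9% and 58.5%.

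The difference in these shares could not be set against the spread between hearts, because the spread of a ratio depends on how the 2 genes vary together, and only approximate limits follow from the CVs. On the log2 scale, *Hbb-y* relative to *Hbb-b1* was 0.08 lower in *Dio3-/-* hearts, and the SD of that ratio lay anywhere from 0.16 to 1.00 in *Dio3+/+* and from 0.10 to 1.66 in *Dio3-/-* hearts. *Hba-x* relative to *Hba-a2* differed by −0.03, with an SD of at least 0.10 in *Dio3+/+* and 0.01 in *Dio3-/-* hearts. *Hba-x* relative to *Hbb-y*, the embryonic chains of the α and β clusters, differed by 0.01, with an SD of at least 0.03 and 0.06. The differences for *Hbb-y* to *Hbb-b1* and *Hba-x* to *Hbb-y* were below the smallest possible SD in each genotype.

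In order of level per transcript length, *Hba-a2* was followed by *Hbb-y*, *Hbb-b1*, *Hba-x* and *Hbb-bh1* in both genotypes. *Hba-a2* was 1.74 times *Hbb-y* in *Dio3+/+* and 1.79 times in *Dio3-/-* hearts, and these neighbours did not differ by more than the sum of their SDs. *Hbb-y* was 2.96 times *Hbb-b1* in *Dio3+/+*, beyond that sum, and 2.79 times in *Dio3-/-* hearts, within it. *Hbb-b1* and *Hba-x* did not differ beyond their spread in either genotype (1.33 and 1.4 times). *Hba-x* was 23.2 and 22.8 times *Hbb-bh1*, beyond the sum of the SDs in both. Among all genes, *Hba-a2* ranked 1, *Hbb-y* 2, *Hbb-b1* 9, *Hba-x* 12 and *Hbb-bh1* 322 by the mean of both genotypes.

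Levels of the adult genes rest on how reads from near-identical copies were placed. Only reads that mapped to 1 place were used by the authors. Of the 75-base windows of the *Hba-a2* transcript in GENCODE, 389 of 480 (81.0%) also occur in *Hba-a1*, and 64.3% of the windows of *Hbb-bs* occur in *Hbb-bt*, the other adult β gene of C57BL mice. *Hbb-bt* had no row under that name, and whether the row named *Hbb-b1* stands for it was not tested. *Hbb-b1* and *Beta-s* are therefore not counted here as additional to *Hbb-bt* and *Hbb-bs*. *Hba-x*, *Hbb-y* and *Hbb-bh1* share no window with the other GENCODE globin transcripts compared, and matches elsewhere in the genome were not searched. From these means and GENCODE transcript lengths, with that of *Hbb-bt* used for *Hbb-b1*, the 5 genes took an estimated 5.96% of mapped reads in *Dio3+/+* and 2.07% in *Dio3-/-* hearts. Because RPKM divides by all mapped reads, a gene with the same share of the remaining reads in both genotypes would differ by 0.06 on the log2 scale, beside the median of 0.04 over tested genes.

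Other globin genes were examined with the same table. *Beta-s* stood at 9837.77 RPKM (CV 0.41) and 3572.13 (CV 0.55), a ratio of 2.75, nearly the values of *Hbb-b1*. The θ genes *Hbq1b* and *Hbq1a*, little-expressed members of the α cluster, averaged 8.2 and 7.99 RPKM in *Dio3+/+* and 3.36 and 3.21 in *Dio3-/-* hearts, with log2 ratios of −1.17 and −1.19 (adjusted P = 0.0696 and 0.0692 by limma). *Gm5736*, whose current symbol is *Hbb-bh2*, was listed at 0.86 and 0.25 RPKM, below the filter. *Mb*, the myoglobin of heart muscle cells and no red cell gene, averaged 78.72 RPKM (CV 0.30) in *Dio3+/+* and 147.67 (CV 0.20) in *Dio3-/-* hearts (log2 ratio 0.90, adjusted P = 0.0594 by limma). Of 4 other globin genes tested, 0 passed an adjusted P of 0.05 by limma, where 2.29% of all tested genes passed. An unadjusted P under 0.05 by limma was reached by 4, of which 3 were lower, beside 19.7% of all tested genes in either direction. Genes flanking the α cluster differed little. *Nprl3*, whose introns hold the α-globin enhancers, averaged 7.37 and 7.64 RPKM (log2 ratio 0.05, adjusted P = 0.758 by limma), and *Snrnp25*, *Rhbdf1*, *Mpg* and *Sh3pxd2b* had log2 ratios of −0.16 to 0.13. The olfactory receptor genes beside the β cluster, *Olfr67* and *Olfr66*, were at or below 0.03 RPKM.

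Genes of heme synthesis and iron supply, which provide the prosthetic group of the globin chains, were lower and higher in equal number. Of 20 tested, 10 were lower and 10 higher in *Dio3-/-* hearts, beside 36.1% and 63.3% of all tested genes. The median log2 ratio was −0.06, with 3 genes below −1 (*Alas2*, *Slc25a37* and *Hmox1*). An unadjusted P under 0.05 by limma was reached by 6 lower and 3 higher genes, beside 4.46% and 15.2% of all tested genes. *Alas2*, the first and rate-limiting heme enzyme of red cells, averaged 244.34 RPKM (CV 0.33) in *Dio3+/+* and 93.08 (CV 0.53) in *Dio3-/-* hearts, with a log2 ratio of −1.39 ± 0.36 (SE) and an adjusted P of 0.0759 by limma. *Slc25a37*, the mitochondrial iron importer of red cells, stood at 106.67 and 47.88 RPKM (−1.15, adjusted P = 0.103 by limma). *Tfrc*, the transferrin receptor, averaged 18.07 and 21.68 RPKM (adjusted P = 0.338 by limma). Only 1 gene of the list fell, against 0.382% of tested genes: *Hmox1*, which breaks heme down, from 43.8 to 20.38 RPKM (log2 ratio −1.09, adjusted P = 0.0481 by limma). The call for *Hmox1* was lost by centring on the median log2 ratio (adjusted P = 0.0543 by limma), with no filter (0.083) and with CVs raised by 0.005 (0.055). *Alas1*, the housekeeping form of the first heme enzyme, rose from 23.73 to 28.52 RPKM (log2 ratio 0.26, adjusted P = 0.0214 by limma), where 1.91% of tested genes rose.

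Genes of the red cell membrane and cytosol were mostly lower, by less than the globin genes. Of 19 tested, 16 had a lower mean in *Dio3-/-* hearts, beside 36.1% of all tested genes, and the median log2 ratio was −0.80, from −1.15 to 0.57. Their summed level was 580 RPKM in *Dio3+/+* and 303 in *Dio3-/-* hearts, and their median CV was 0.33 and 0.47. None of the 19 passed an adjusted P of 0.05 by limma (0.0739 to 0.968), where 2.29% of all tested genes passed. An unadjusted P under 0.05 by limma was reached by 13, each of them lower, beside 4.46% of all tested genes. *Slc4a1*, the band 3 anion exchanger, averaged 187.31 and 83.84 RPKM (log2 ratio −1.15, adjusted P = 0.12 by limma). *Car2*, a carbonic anhydrase, averaged 98.25 and 49.52 RPKM (−0.98, adjusted P = 0.0995 by limma). *Hemgn*, a nuclear protein of red cell precursors, had the opposite direction, at 2.84 RPKM (CV 0.44) and 4.45 (CV 0.73). *Ahsp*, which binds free α chains, was matched by no row. Relative to the median of this list, the globin genes had log2 ratios of −0.75 (*Hbb-y* and *Hba-x*) to −0.67 (*Hbb-b1*). The list also holds genes with far lower CVs, such as *Gypc* (log2 ratio 0.04, CV 0.03 and 0.08) and *Ank1* (−0.26, CV 0.06 and 0.10). How much of the RNA of these genes came from cells other than red cells was not tested. The median of the list therefore does not give the change in red cell RNA.

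Regulators of globin transcription went in both directions. Of 22 tested, 11 were lower and 11 higher, beside 36.1% and 63.3% of all tested genes, and the median log2 ratio was 0.02. None passed by limma (adjusted P of 0.0679 to 0.981), where 2.29% of all tested genes passed. An unadjusted P under 0.05 by limma was reached by 6, of which 4 were lower, beside 19.7% of all tested genes in either direction and 4.46% lower. *Tal1* and *Nfe2*, factors of the red cell and megakaryocyte lineages, averaged 31.41 and 10.35 RPKM in *Dio3+/+* and 15.88 and 5.48 in *Dio3-/-* hearts (adjusted P = 0.106 and 0.146 by limma). *Klf1*, which activates adult β-globin, averaged 3.25 RPKM (CV 0.33) and 3.68 (CV 0.64, adjusted P = 0.864 by limma). *Gata1* averaged 2.33 RPKM (CV 0.33) and 1.88 (CV 0.61, adjusted P = 0.735 by limma). *Bcl11a* and *Sox6*, repressors of embryonic globin genes, averaged 9.57 and 6.41 RPKM in *Dio3+/+* and 8.78 and 5.78 in *Dio3-/-* hearts (adjusted P = 0.554 and 0.515 by limma). *Myb* and *Lin28b*, at 0.93 and 1.07 RPKM against 1.17 and 1.23, were close to the filter. These regulators are also expressed outside red cells, so a heart-wide level does not give their level in blood.

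Markers of other cells were set beside the globin genes. Platelet and megakaryocyte genes, which also come with blood, had lower means for 9 of 9, beside 36.1% of all tested genes. Their median log2 ratio was −0.56 and their summed levels were 46.4 and 29 RPKM. By limma 0 of 9 passed, beside 2.29% of all tested genes (7 with an unadjusted P under 0.05, each lower, beside 4.46% of tested genes). Endothelial and endocardial genes had summed levels of 339 and 371 RPKM. By limma 0 of 8 passed, beside 2.29% of all tested genes (3 with an unadjusted P under 0.05, each higher, beside 15.2% of tested genes). Of 8 macrophage and leukocyte genes, 5 had a lower mean, beside 36.1% of all tested genes, and the median log2 ratio was −0.06. Of the 8, 1, *Lyz2*, rose (0.48, adjusted P = 0.0214 by limma), where 1.91% of tested genes rose. Of 11 cardiomyocyte genes, 10 had a higher mean, beside 63.3% of all tested genes, with a median log2 ratio of 0.23. An unadjusted P under 0.05 by limma was reached by 5 of the 11, each higher, beside 15.2% of tested genes. Of these, 1, *Ryr2*, the calcium release channel, passed (0.59, adjusted P = 0.0231 by limma), where 1.91% of tested genes rose. Hepatocyte genes were higher in *Dio3-/-* hearts for 14 of 14, beside 63.3% of all tested genes. They went from a summed 26.2 to 141 RPKM, with a median log2 ratio of 1.62 and median CVs of 1.02 and 1.11. None of the 14 passed by limma (adjusted P of 0.121 to 0.243), where 2.29% of all tested genes passed. Each had an unadjusted P under 0.05 by limma, beside 15.2% of tested genes in that direction. *Afp* and *Alb*, the serum proteins that define fetal hepatocytes, averaged 5.11 and 5.16 RPKM (CV 1.24 and 1.29) in *Dio3+/+* and 44.57 and 36.06 (CV 1.18 for both) in *Dio3-/-* hearts. The liver of the fetus is the site of definitive red cell formation, and the part of these hepatocyte transcripts in the globin values was not tested. The skeletal muscle genes *Myog* and *Myh3* had lower means in *Dio3-/-* hearts and varied widely between *Dio3+/+* hearts. *Myog*, a muscle transcription factor, averaged 9.78 RPKM (CV 1.56) in *Dio3+/+* and 1.17 (CV 0.86) in *Dio3-/-* hearts, and *Myh3*, embryonic myosin, 14.23 (CV 1.61) and 0.72 (CV 0.99). The CVs of the globin genes in *Dio3+/+* hearts were 0.27 to 0.40, but a CV does not show which hearts held skeletal muscle. The part of this tissue in the globin values was not tested.

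**Figure D4:**
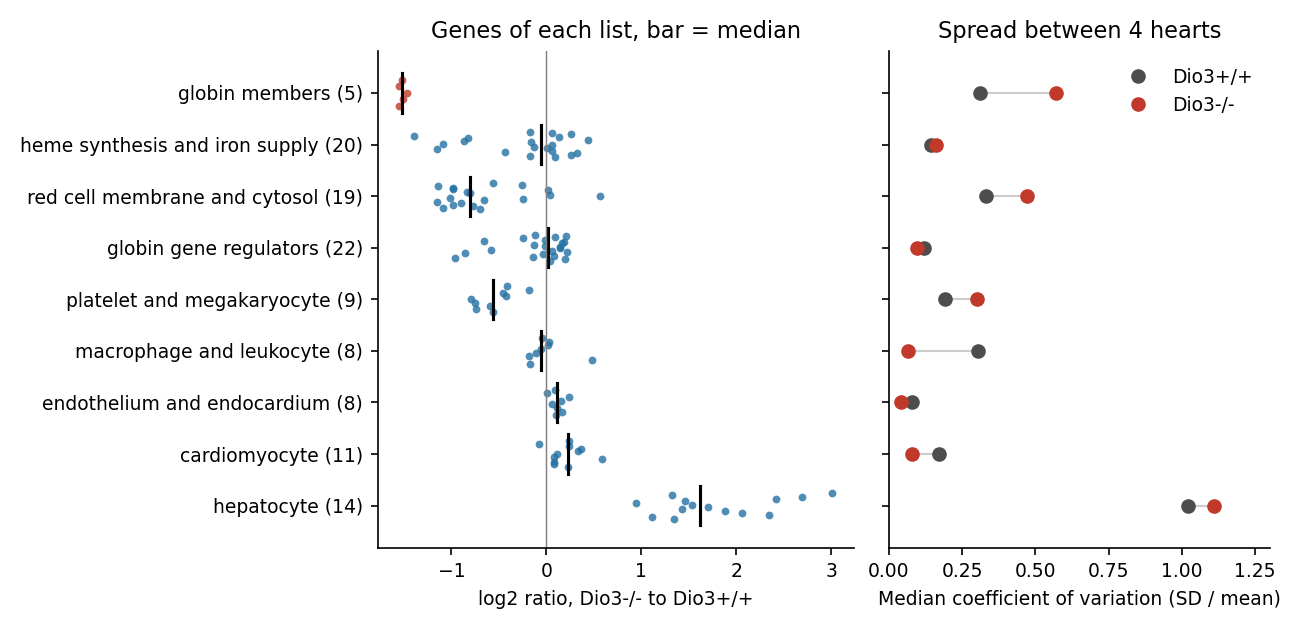
Left, log2 ratio of *Dio3-/-* to *Dio3+/+* means for each tested gene of 9 lists (points, with the number tested in brackets) and the median of each list (black bar). Right, median CV of each list in *Dio3+/+* (grey) and *Dio3-/-* (red) hearts. The globin genes form the tightest group, at −1.55 to −1.47, the red cell list has a median of −0.80, and hepatocyte genes lie on the other side of 0 with CVs above 1.

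Of the 5 genes most like *Hbb-y* in these summaries, 4 were globins, as were 4 of the 5 most like *Hbb-bh1*. Likeness was measured for these genes over 10160 genes above 5 RPKM, as the distance over the log2 ratio and both CVs, so it rests on 3 summary values and not on 8 hearts. These values were already described above as close among the globin genes, so nothing is read from the number of globins. Nearest to *Hbb-y* were *Hba-x* (distance 0.0454), *Hba-a2* (0.0682), *Hsd3b6* (0.139), *Hbb-b1* (0.155) and *Hbb-bh1* (0.156). Nearest to *Hbb-bh1* were *Hsd3b6* (0.0471), *Hba-x* (0.121), *Hba-a2* (0.124), *Hbb-b1* (0.128) and *Beta-s* (0.145). *Hsd3b6*, an enzyme of steroid synthesis, averaged 156.06 RPKM (CV 0.29) in *Dio3+/+* and 55.47 (CV 0.49) in *Dio3-/-* hearts.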

How the data were processed

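Hearts of 4 *Dio3+/+* and 4 *Dio3-/-* fetuses were compared. The authors aligned 75-base single-end reads with Novoalign (version 2.08), kept uniquely mapping reads and scaled samples linearly. The genome build is not given in the sources used here. The authors deposited a mean per genotype, read as RPKM because their filter uses it (the table names no unit), and a CV, which is a ratio of SD to mean. Deposited fold changes (a ratio) and q-values hold the authors' own comparisons and were not used. Depth per sample cannot be read from these values; the methods state a range over samples.

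The planned test on single hearts could not be run. For each of 32703 rows above 1 RPKM in at least 1 genotype, log2(mean + 0.5) was taken, the SD was derived from the CV, and limma (version 3.58.1, R 4.3.3) with a mean-variance trend gave moderated P values (6 residual and 3.52 prior degrees of freedom), adjusted by Benjamini-Hochberg over all rows. The 0.5 added before the log makes the log2 ratios of low genes smaller than those of their means. The fit was tested on simulated data that gave both genotypes the same CV, with an upper limit. Rows with unequal or larger CVs were not covered, so nothing is read from that test for them. A gene was called by its row with the highest mean. Where nothing else is said, P values measure the spread between 4 hearts per genotype. The globin members and all gene lists were chosen with earlier results of these data known, and the members were not tested. Genes named were the members, list genes that passed, the most abundant list genes, set defining genes and the 5 nearest by likeness. Others were chosen after their values were seen: the flanking genes, the highly expressed genes with a log2 ratio below −1, and single genes. These single genes were *Tal1*, *Nfe2*, *Hemgn*, *Gypc*, *Ank1*, *Xist*, *Eif2s3y*, *Ddx3y*, *Myog* and *Myh3*. Summaries used Python (3.11.15), pandas (2.3.3) and numpy (2.4.6). Alternatives were other pseudocounts (0.1 and 1), filters, Welch's test, centring, 1 row per gene, other rows of each gene and scaling to the red cell list. Adding *Beta-s* to *Hbb-b1* and raising CVs by 0.005 were chosen after seeing the data.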

Additional observations from a re-analysis of the deposited data

How the results depend on the processing

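Of 88 values recomputed under an alternative, 71 kept their direction and size, and 0 reversed. Not all of the 71 could have moved, since a globin gene with a single row has the same value whichever row is used. The 71 also hold list counts that stayed at 0, which have no direction or size. The log2 ratios of the 5 globin genes moved by less than their spread with a pseudocount of 1, with centring on the median log2 ratio and with other rows of *Hbb-bh1*. Relative to the median of the red cell list, whose expression outside red cells was not tested, their median was −0.72 in place of −1.52. Adding *Beta-s* to *Hbb-b1* moved the embryonic share of β-like RNA to 59.9% in *Dio3+/+* and 58.5% in *Dio3-/-* hearts. The number of genes called by limma, 336, was 197 with no filter on low values, 180 with centring, 187 with CVs raised by 0.005 (chosen after seeing the data) and 26 by Welch's test. The share of calls that were higher in *Dio3-/-* hearts was 83.3%, 71.7% with centring and 96.2% by Welch's test. By Welch's test 0 heme genes, 0 macrophage genes, 0 cardiomyocyte genes and 3 thyroid hormone response genes passed, with *Hmox1* at an adjusted P of 0.217, and with centring 1 heme gene passed. The 6 lists with 0 calls by limma also had 0 by Welch's test. Causes of these changes were not tested. No paired analysis was possible because the table gives no values for single hearts, and leaving out each heart in turn was not run for the same reason. Because the reads behind each value were not given, counting error could not be set beside low genes such as *Myb*.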
